A study of Mus musculus with 9 samples.

Results

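The BCL-2 family decides whether a stressed cell keeps its mitochondria intact, and 10 of its genes were followed here through oxygen-glucose deprivation (OGD) of BV2 cells, with and without the P300 inhibitor A-485. The members are those rows of the expression table that carry the symbols Bcl2, Bcl2l1, Mcl1 and Bcl2a1b (4 pro-survival genes) or Bax, Bak1, Bcl2l11, Bbc3, Pmaip1 and Bid (6 pro-death genes). All 10 were found among the 54532 genes of the table, and all 10 passed the filter on low values, also on the control and OGD libraries alone. RNA was sequenced from 9 libraries of the immortalized mouse microglial line BV2, 3 in each of 3 groups. Control cells stayed in complete medium under normal oxygen. OGD cells were moved to low-glucose medium with less serum in a hypoxic chamber, so oxygen, glucose and serum changed together and cannot be told apart. OGD + A-485 cells went through the same deprivation with A-485, which blocks the catalytic site of the histone acetyltransferase P300 and of its close relative CBP. Cells given A-485 under normal oxygen are not among these libraries, so an effect of the inhibitor alone is not analysed here. Whether control and OGD cells received the vehicle of A-485 is not given in the sources used here. An effect of the vehicle therefore cannot be told apart from that of the inhibitor. The labels do not say whether the 3 libraries of a group came from separate cultures, and the p-values then measure only the spread between libraries, which may be technical.

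BCL-2 family proteins meet on the outer mitochondrial membrane. BCL-2, BCL-XL, MCL-1 and A1, the products of Bcl2, Bcl2l1, Mcl1 and the Bcl2a1 genes, hold the effectors BAX and BAK in check, while BIM, PUMA, NOXA and BID, the BH3-only products of Bcl2l11, Bbc3, Pmaip1 and Bid, occupy the pro-survival proteins or switch the effectors on. Once free, BAX and BAK open the membrane, cytochrome c leaves, and the apoptosome activates the caspases. Transcript levels were measured here, and neither protein levels nor cell death. In a separate viability assay (CCK8), the study reported that fewer BV2 cells survived as OGD lengthened. Whether RNA from the cells collected stands for the whole culture was not tested.

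Levels are given in FPKM, fragments per kilobase of gene, scaled to the depth of the library. The libraries held between 12593250 and 16091038 reads on genes. FPKM was scaled to a divisor of 12729430 to 16193083, so that 1 read on a gene of 1 kb stood for 0.0618 to 0.0786 FPKM. The divisor was above the reads on genes in every control and OGD library and below them in every OGD + A-485 library. Scaling to library totals therefore shifts the groups against each other. No library stood apart, and mitochondrial genes took 1.14 to 2.20% of the reads, with the OGD libraries lowest. The microglial identity was checked on 10 markers, of which Cd68 and Csf1r were abundant, while Aif1 and Tmem119 were low (group means of at most 2.57 and 1.40 FPKM) and P2ry12 was near 0 (at most 0.244 FPKM). The 10 markers summed to 354 to 364 FPKM in control libraries, 420 to 446 FPKM in OGD libraries and 750 to 791 FPKM in those with A-485. Cd68 supplied most of these sums, with group means of 277, 306 and 445 FPKM. Markers of astrocytes, neurons and fibroblasts summed to at most 0.155, 0.0337 and 0.0234 FPKM in any library. Those of oligodendrocytes, endothelial cells and T cells reached 2.36, 1.58 and 2.09 FPKM, with Mog, Mag and Cldn5 at 0 reads in all libraries. In such bulk RNA, fewer cells of a kind and less RNA per cell cannot be told apart.

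A gene was called when limma gave p under 0.01 and a log2 fold change beyond 0.5 in either direction, on the log2(FPKM + 0.1) scale, the thresholds the study set for its own test. Log2 fold changes below are followed by their standard error (SE), and adjusted p-values are those of limma with Benjamini-Hochberg adjustment over the 16123 genes tested. OGD against control asks what differed with deprivation, and OGD + A-485 against OGD asks what differed with the inhibitor, and any vehicle, during deprivation. Where A-485 is said below to raise or lower a gene, such a comparison of groups is meant. Both comparisons use the same 3 OGD libraries, so a chance deviation of those libraries moves both, in opposite directions.

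Mcl1, a pro-survival gene with a short-lived protein, was by far the most abundant member and the only one called higher under OGD. Its level was 192.4, 189.4 and 194.1 FPKM in the control libraries, 371.1, 384.5 and 364.9 FPKM in the OGD libraries, and 296.5, 297.0 and 322.2 FPKM in the OGD + A-485 libraries. The 3 groups did not overlap, and the treated group lay between the other groups. OGD raised Mcl1 1.95-fold (log2 fold change 0.96, SE 0.045, adjusted p = 1.23e-06). With A-485 it was 0.817 times the OGD level (log2 fold change -0.29, adjusted p = 0.000607), a difference beyond the spread between libraries but below the fold threshold. Against control, OGD + A-485 libraries kept 1.59 times the level (log2 fold change 0.67, adjusted p = 2.45e-06), and that value fell to 0.26 and lost its call under quantile normalization. The gene lies at chr3:95658788-95663176 (GRCm38) on the plus strand, and each library put at least 8786 reads on it.

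Bcl2l1, which encodes BCL-XL, was higher under OGD and fell below the control level with A-485. It measured 38.4, 38.2 and 35.5 FPKM in control, 50.3, 49.0 and 51.8 FPKM under OGD, and 33.1, 29.5 and 31.2 FPKM in OGD + A-485. No 2 groups overlapped, and the inhibitor group was the lowest. The OGD level was 1.35 times that of control (log2 fold change 0.43, SE 0.052, adjusted p = 0.000172), short of the fold threshold. A-485 lowered it to 0.621 times the OGD level (log2 fold change -0.69, adjusted p = 8.64e-06), which was the call with the smallest p among the members in that comparison. Against control the log2 fold change was -0.26 (adjusted p = 0.00247). Bcl2l1 lies at chr2:152780668-152831728 on the minus strand.

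Bcl2 itself, the founding member, was the least abundant of the 10 genes in every group. It measured 2.53, 2.71 and 2.35 FPKM in control, 3.19, 3.43 and 3.05 FPKM under OGD, and 2.81, 2.70 and 2.87 FPKM in OGD + A-485, from 310 to 409 reads per library. All OGD libraries lay above all others, while the control and OGD + A-485 libraries overlapped. The difference under OGD was 0.34 on the log2 scale (SE 0.084, adjusted p = 0.00994), and with A-485 it was -0.20 against OGD (adjusted p = 0.0795). Neither was called. The gene lies at chr1:106538178-106714274 on the minus strand.

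**Figure D1:**
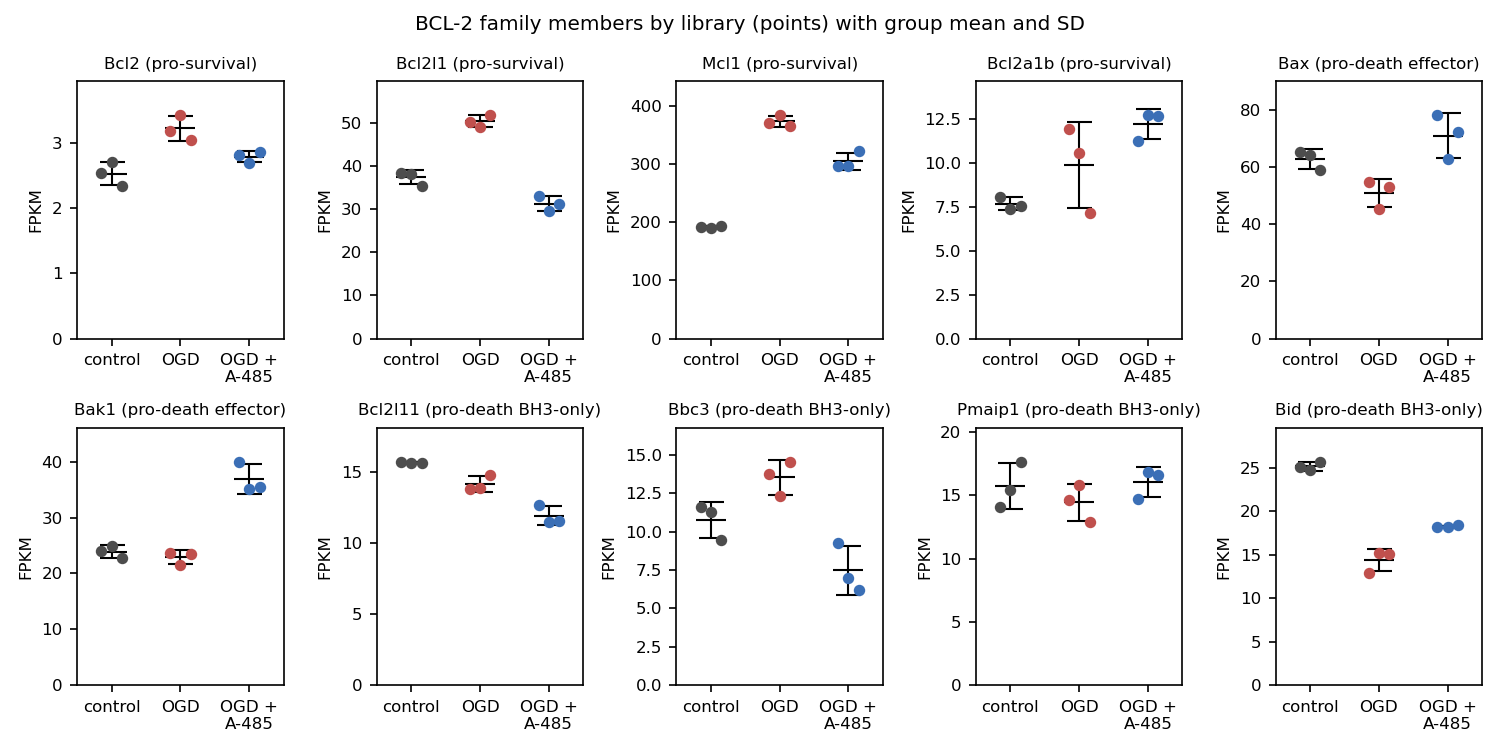
FPKM of the 10 BCL-2 family genes in each library (points), with the group mean and SD (horizontal lines and bars, n = 3 libraries per group), each gene on its own axis from 0. Mean Mcl1 is 192 FPKM in control, 373 FPKM under OGD and 305 FPKM with A-485, Bid falls from 25.2 FPKM to 14.4 FPKM under OGD, and Bak1 is at 23.9 FPKM and 22.9 FPKM in the control and OGD groups and at 36.9 FPKM with A-485.

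Bcl2a1b, 1 of several mouse copies of the gene for A1, an NF-kB target of myeloid cells, was the most variable pro-survival gene. Its levels were 8.06, 7.39 and 7.56 FPKM in control, 11.9, 10.5 and 7.14 FPKM under OGD, and 11.2, 12.7 and 12.6 FPKM in OGD + A-485, from 82 to 164 reads per library. The OGD group spanned nearly the whole range of the other groups, because its replicate 3 lay below every control library. Against control, neither OGD (log2 fold change 0.33, SE 0.16, adjusted p = 0.135) nor A-485 against OGD (0.33, adjusted p = 0.121) was called, but without OGD replicate 3 the change under OGD became 0.54 and was called. OGD + A-485 against control was called at 1.59-fold (log2 fold change 0.66, adjusted p = 0.00695), and lost its call without control replicate 2 (0.63), control replicate 3 (0.65), OGD + A-485 replicate 2 (0.63) or OGD + A-485 replicate 3 (0.63).

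The copies of this gene are close to identical, which limits how reads can be assigned to them. Bcl2a1b lies at chr9:89199209-89207827 on the plus strand, Bcl2a1a at chr9:88956900-88962419 on the plus strand and Bcl2a1d at chr9:88723285-88731914 on the minus strand. Their coding sequences of 519 bases differ at 11 positions between Bcl2a1a and Bcl2a1b, at 7 between Bcl2a1a and Bcl2a1d, and at 6 between Bcl2a1b and Bcl2a1d. Of the 12 positions at which the copies are not all alike, 6 fall within the first 60 coding bases. These are printed 5′ to 3′ from GRCm38 to show how little separates the copies, with capitals at those positions.
Bcl2a1a (chr9:88957051-88957110, plus strand): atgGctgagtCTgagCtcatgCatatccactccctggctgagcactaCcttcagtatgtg
Bcl2a1b (chr9:89199360-89199419, plus strand): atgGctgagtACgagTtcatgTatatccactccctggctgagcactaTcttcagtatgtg
Bcl2a1d (chr9:88731660-88731719, minus strand): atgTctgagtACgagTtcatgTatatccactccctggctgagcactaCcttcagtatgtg
Stretches of 100 bases along the spliced transcripts were compared between Bcl2a1a, Bcl2a1b and Bcl2a1d, without Bcl2a1c or Gm29094. The share found in neither of the other copies was 56.5% for Bcl2a1a, 68.9% for Bcl2a1b and 45.3% for Bcl2a1d. At 150 bases the shares were 71.8, 85.8 and 69.7%. The read length is not given in the sources used here. Besides, 401 of the 817 exon bases of Bcl2a1b (49.1%) are shared with Gm29094 on the same strand, which is listed at 0 in every library.

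Bcl2a1d was called higher with A-485 against OGD and Bcl2a1b was not, and the difference between the copies was not tested. Bcl2a1a passed the filter on low values only through its reads with A-485, so its call there is no result of its own. Bcl2a1d had 0.867, 1.22 and 1.65 FPKM in control and 0.910, 1.42 and 1.32 FPKM under OGD, and reached 8.41, 10.8 and 10.8 FPKM in OGD + A-485. Its 106 to 147 reads per inhibitor library stood against 10 to 23 in control and 10 to 16 in OGD, with no overlap. The rise over OGD was 8.22-fold in mean FPKM (log2 fold change 2.95, SE 0.24, adjusted p = 1.17e-05). Bcl2a1a had 0 reads in all 6 control and OGD libraries and 34, 29 and 26 reads in the OGD + A-485 libraries (2.84, 2.24 and 2.20 FPKM). Against a floor of 3 reads per library, its mean was at least 8.44-fold higher with A-485. Bcl2a1c is listed at 0 in all libraries. The 3 detected copies summed to 8.91 ± 0.299 FPKM in control libraries, 11.1 ± 2.32 FPKM under OGD and 24.6 ± 1.87 FPKM with A-485 (SD, n = 3). The sum with A-485 was 2.22 times that of OGD (log2 fold change 1.17, SE 0.20) and 2.76 times that of control (1.46). A two-sided exact permutation test gave p = 0.1 for each, the smallest value that 3 against 3 libraries can give, and p = 0.4 for OGD against control. Bcl2a1b held 86.1% of the sum in control libraries, 88.5% under OGD and 49.5% with A-485. Bcl2a1a, with reads only in the OGD + A-485 libraries, made up 9.97% of the sum there, so the tested sum is not independent of it. These shares use the FPKM as listed. How reads were assigned on the 49.1% of Bcl2a1b exon bases shared with Gm29094 is not given in the sources used here. The summed microglial markers, mostly Cd68, moved in the same libraries (420 to 446 FPKM in OGD, 750 to 791 FPKM with A-485), and their part in the rise of the Bcl2a1 copies was not tested. Of the 9 markers tested, 7 were called higher with A-485 against OGD and 0 lower, against 12.2 and 13.4% of all genes. Tmem119 was not called, with means of 1.34 and 1.33 FPKM. Among the T cell markers, Cd3d, Cd3e and Cd3g had group means of at most 0.0242 FPKM, while Lck had means of 1.05, 0.920 and 1.66 FPKM in control, OGD and OGD + A-485. Lck was itself called higher with A-485 (log2 fold change 0.77 against OGD, adjusted p = 0.00327), and its part in the rise of the copies was not tested.

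**Figure D2:**
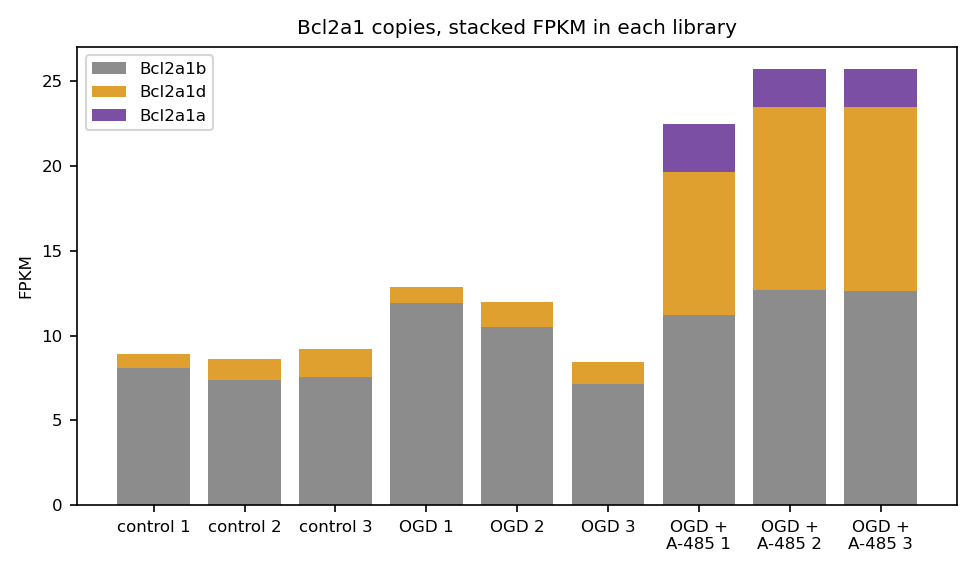
FPKM of Bcl2a1b, Bcl2a1d and Bcl2a1a stacked in each of the 9 libraries, so that bar height is their sum. The control and OGD bars lie between 8.45 and 12.8 FPKM and consist mainly of Bcl2a1b, while the OGD + A-485 bars lie between 22.5 and 25.7 FPKM, with Bcl2a1d at 8.41 to 10.8 FPKM and Bcl2a1a, absent from the other bars, at 2.20 to 2.84 FPKM.

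The promoters of the copies were also compared. The 138 bases printed from the Bcl2a1a and Bcl2a1b promoters (RefSeq, GRCm38.p6) end 49 bases before the annotated gene and are identical. The matching Bcl2a1d stretch is 132 bases long and differs by 1 mismatch and a gap of 6 bases. Capitals mark GAGGAA and its reverse complement TTCCTC, the core letters bound by ETS factors such as PU.1, a master regulator of microglia. Over both strands the motif occurs 3 times in these stretches of Bcl2a1a and Bcl2a1b, 2 of the copies adjoining, and 2 times in that of Bcl2a1d.
Bcl2a1a (chr9:88956714-88956851, plus strand): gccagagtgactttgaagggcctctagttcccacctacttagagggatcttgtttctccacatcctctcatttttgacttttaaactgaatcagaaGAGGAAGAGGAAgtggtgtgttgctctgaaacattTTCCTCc
Bcl2a1b (chr9:89199023-89199160, plus strand): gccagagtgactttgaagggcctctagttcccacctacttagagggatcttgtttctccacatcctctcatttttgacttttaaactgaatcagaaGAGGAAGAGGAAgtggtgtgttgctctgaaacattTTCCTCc
Bcl2a1d (chr9:88731919-88732050, minus strand): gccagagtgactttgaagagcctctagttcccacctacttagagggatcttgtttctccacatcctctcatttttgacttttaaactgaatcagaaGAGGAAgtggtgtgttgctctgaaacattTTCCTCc
Searched on both strands, GAGGAA is held by 28.3% of the 32851 RefSeq promoters of 300 bases (250 before to 50 after the start). Of the 10 members, 9 have a promoter in that table, and 4 of these hold the motif (Bcl2, Bcl2a1b, Bak1 and Bid). A member counts when any of its promoters holds the motif, whereas the 28.3% is a share of single promoters, so these units differ. A match describes letters and not a bound site.

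Neither effector was called under OGD, and with A-485 against OGD Bak1 was called higher and Bax was not. Bax measured 65.4, 64.1 and 59.0 FPKM in control, 54.6, 45.5 and 53.1 FPKM under OGD, and 78.2, 62.7 and 72.1 FPKM in OGD + A-485. The OGD libraries lay below all others, and the control and OGD + A-485 libraries overlapped. The log2 fold change was -0.30 under OGD (SE 0.094, adjusted p = 0.0276) and 0.47 with A-485 against OGD (adjusted p = 0.00264), just under the fold threshold. Without OGD replicate 1, OGD replicate 3 or OGD + A-485 replicate 2 the second value became 0.52, 0.50 and 0.56 and was called. Bax (chr7:45461697-45466898, minus strand) shares 192 of its 1576 exon bases with Gm45808 on the same strand, which is listed at 0.

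Bak1 answered to A-485 and showed no detectable change under OGD. It measured 24.04, 24.9 and 22.7 FPKM in control and 23.7, 21.6 and 23.5 FPKM in OGD, which overlap, and 40.1, 35.2 and 35.4 FPKM in OGD + A-485, above every other library. The log2 fold change under OGD was -0.06 (SE 0.064, adjusted p = 0.502). A-485 raised Bak1 1.61-fold over OGD (log2 fold change 0.68, adjusted p = 3.13e-05) and 1.54-fold over control (0.62, adjusted p = 3.66e-05). The gene lies at chr17:27019810-27029009 on the minus strand and shares 437 exon bases with Ggnbp1 on the opposite strand, which reached at most 0.453 FPKM.

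Among the BH3-only genes, Bid fell under OGD and was the only pro-death gene called in that comparison. BID is cut by caspase-8 and links death receptors to mitochondria. It measured 25.1, 24.7 and 25.7 FPKM in control, 12.9, 15.2 and 15.04 FPKM under OGD, and 18.2, 18.2 and 18.4 FPKM in OGD + A-485. The groups were fully separated, and the inhibitor group lay between the others. OGD lowered Bid to 0.571 times the control level (log2 fold change -0.81, SE 0.061, adjusted p = 1.22e-05). With A-485 it was 1.27 times the OGD level (log2 fold change 0.35, adjusted p = 0.00134) and stayed below control (-0.46, adjusted p = 0.000177). These last values were not called, although the last became -0.58 and was called when libraries were scaled to their totals. Bid (chr6:120891930-120916853, minus strand) shares 628 of its 3550 exon bases (17.7%) with Bcl2l13 on the opposite strand, whose mean level was 8.49 FPKM. Whether reads were counted by strand is not given in the sources used here.

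Bbc3, which encodes the p53 target PUMA, fell with A-485. It measured 11.6, 11.3 and 9.42 FPKM in control, 13.7, 12.3 and 14.6 FPKM under OGD, and 9.28, 6.94 and 6.20 FPKM in OGD + A-485, from 190 to 435 reads per library. OGD libraries were above all control libraries and OGD + A-485 libraries below them. The difference under OGD was 0.33 on the log2 scale (SE 0.15, adjusted p = 0.0999) and was not called. A-485 lowered Bbc3 to 0.553 times the OGD level (log2 fold change -0.86, adjusted p = 0.00106), the widest change of any member in this comparison. Against control the change of -0.54 (adjusted p = 0.0118) was called. That last call was lost with a pseudocount of 1 (-0.49), with only the groups compared in the fit or no trend in the prior variance (both -0.54), and without control replicate 1 (-0.48), control replicate 2 (-0.50), OGD + A-485 replicate 2 (-0.49) or OGD + A-485 replicate 3 (-0.41). Bbc3 lies at chr7:16308393-16318205 on the plus strand.

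Bcl2l11, the gene for BIM, was lower under OGD and lower again with A-485, by small steps. It measured 15.8, 15.7 and 15.7 FPKM in control, 13.8, 13.9 and 14.8 FPKM under OGD, and 12.7, 11.5 and 11.6 FPKM in OGD + A-485, with no overlap between any groups. The log2 fold changes were -0.15 under OGD (SE 0.049, adjusted p = 0.037), -0.25 with A-485 against OGD (adjusted p = 0.0028) and -0.39 against control (adjusted p = 0.000128), and none was called. The gene lies at chr2:128126038-128162547 on the plus strand.

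Pmaip1, which encodes NOXA, a BH3-only protein that binds MCL-1, was not separable between any groups. It measured 14.1, 15.4 and 17.7 FPKM in control, 14.6, 15.8 and 12.9 FPKM under OGD, and 14.7, 16.8 and 16.6 FPKM in OGD + A-485. The log2 fold changes were -0.12 (SE 0.10, adjusted p = 0.378) under OGD, 0.15 (adjusted p = 0.249) with A-485 against OGD and 0.03 (adjusted p = 0.809) against control. The libraries of every pair of groups overlapped, and the sign of the last value depended on the scaling. Pmaip1 gave no detectable difference while Mcl1, whose product it binds, rose.

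**Figure D3:**
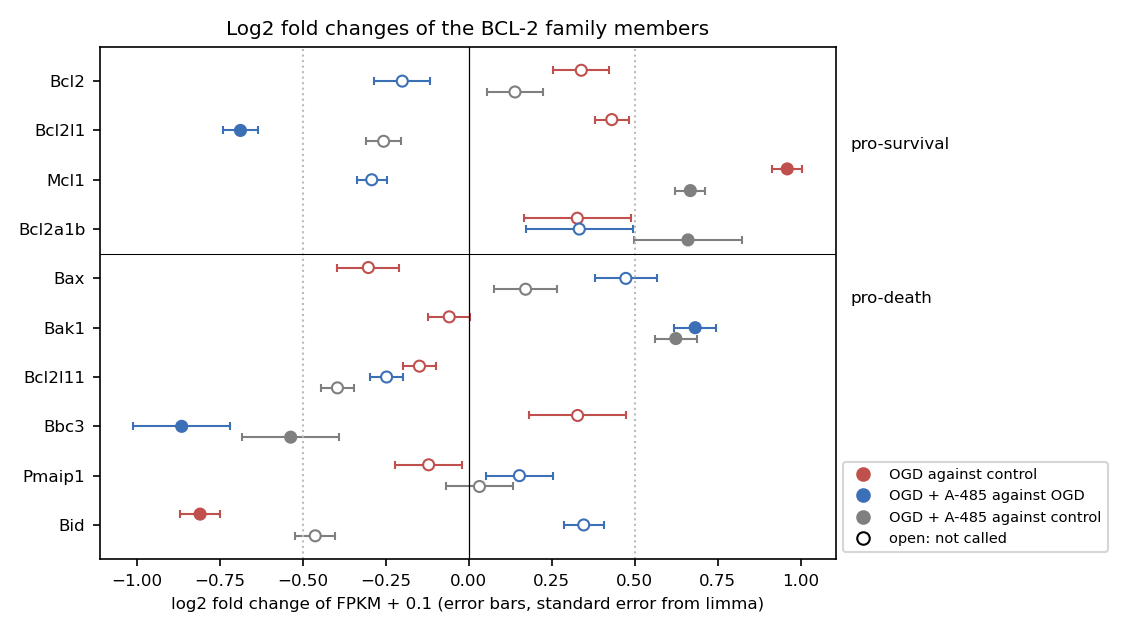
Log2 fold changes of the 10 genes for OGD against control (red), OGD + A-485 against OGD (blue) and OGD + A-485 against control (grey), with limma standard errors as bars, filled points where called and dotted lines at the fold threshold of 0.5. Under OGD the 4 pro-survival genes lie to the right of 0 and 5 of the 6 pro-death genes to the left, with Mcl1 (0.96) and Bid (-0.81) filled, and under A-485 against OGD Bcl2l1 (-0.69), Bbc3 (-0.86) and Bak1 (0.68) are filled.

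Counted together, the share of members called was near that of all genes. Under OGD, 2 of the 10 members were called (Mcl1 higher, Bid lower), against 21% of all genes tested. With A-485 against OGD, 3 of 10 were called (Bak1 higher, Bcl2l1 and Bbc3 lower), against 25.7% (12.2% higher and 13.4% lower). With A-485 against control, 4 of 10 were called (Mcl1, Bcl2a1b and Bak1 higher, Bbc3 lower), against 33.7% (17% higher and 16.6% lower). The libraries did not overlap for 7, 8 and 7 members in these comparisons, against 55.4, 56.8 and 63.8% of all genes tested. An adjusted p-value under 0.05, with no threshold on the fold, was reached by 6, 7 and 7 members, against 45.3, 49.8 and 56.6% of all genes tested. The family's median log2 fold change was 0.13, -0.02 and 0.09, beside 0.01, 0.01 and 0.02 over all genes.

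By role, the log2 fold changes under OGD were mostly positive for the pro-survival genes and mostly negative for the pro-death genes, and few were called. All 4 pro-survival genes had a positive log2 fold change under OGD, from 0.33 to 0.96 with a median of 0.39, and 1 was called higher (11.2% of all genes were). Of the 6 pro-death genes, 5 had a negative value, with a median of -0.13, and 1 was called lower (9.81% of all genes were), while Bbc3 was the exception at 0.33. The median over all genes was 0.01, and the share of all genes with each sign was not counted. Bcl2a1b, Bak1 and Pmaip1 overlapped between OGD and control, so their signs are not resolved. An adjusted p-value under 0.05 was reached by 3 pro-survival and 3 pro-death genes, against 45.3% of all genes tested. With A-485 against OGD the pro-survival median was -0.25 and the pro-death median 0.25. Bcl2a1b was the pro-survival gene with a positive value there, and Bbc3 and Bcl2l11 the pro-death genes with negative values. Split further, the effectors had medians of -0.18 under OGD and 0.58 with A-485, and the BH3-only genes -0.13 and -0.05. These medians describe the members and carry no test.

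The level of one side against the other was followed in each library as the mean log2(FPKM + 0.1) of the pro-survival genes minus that of the pro-death genes. This balance was -0.12, -0.15 and -0.17 in the control libraries, 0.62, 0.64 and 0.40 in those of OGD, and 0.14, 0.28 and 0.34 with A-485. The groups did not overlap, OGD was highest, and the inhibitor group lay between OGD and control. The group means were -0.15 ± 0.024, 0.55 ± 0.13 and 0.25 ± 0.099 (SD, n = 3). Summed FPKM gave the same order, with pro-survival to pro-death ratios of 1.55 ± 0.036 for control, 3.35 ± 0.22 for OGD and 2.18 ± 0.17 with A-485. Mcl1 supplied 80.2, 85.5 and 86.8% of the summed pro-survival FPKM in these groups. Without Mcl1 the ratios were 0.308 ± 0.0061, 0.487 ± 0.022 and 0.287 ± 0.013, with the inhibitor libraries (0.272 to 0.297) all below the control libraries (0.302 to 0.314). That order rested on counting Bcl2a1b as the only copy of its gene. With all 3 detected copies in the sum, an alternative added after seeing the data, the ratios without Mcl1 were 0.317 ± 0.0033, 0.496 ± 0.023 and 0.364 ± 0.024, and the inhibitor libraries (0.337 to 0.383) lay above the control libraries (0.313 to 0.320). This sum includes Bcl2a1a, which had reads only with A-485, and the order without Bcl2a1a was not examined. The commonly quoted Bax to Bcl2 ratio, chosen after its values were seen, was 24.9 ± 1.1 for control, 15.9 ± 2.3 for OGD and 25.4 ± 2.3 with A-485. These ratios compare RNA per gene length and carry no test.

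**Figure D4:**
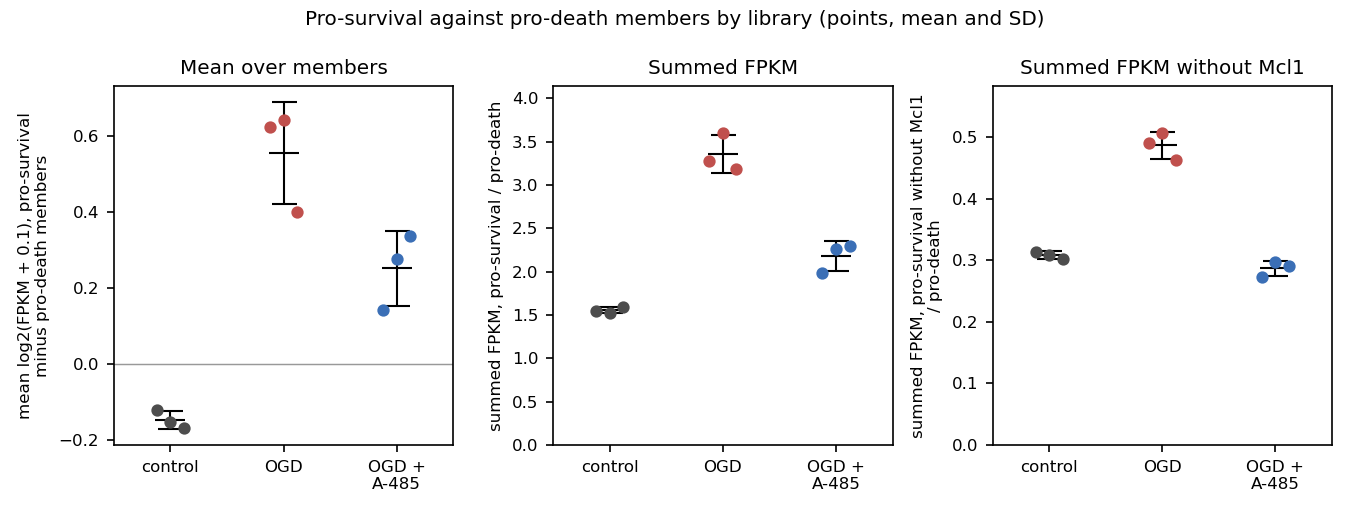
Pro-survival against pro-death genes in each library (points) with group mean and SD (n = 3): the difference of mean log2(FPKM + 0.1), the ratio of summed FPKM, and the same ratio without Mcl1. OGD is highest in all 3 panels, and OGD + A-485 lies above control in the first 2 panels (0.25 against -0.15, and 2.18 against 1.55) but below it once Mcl1 is left out (0.287 against 0.308), an order that turns when all Bcl2a1 copies are summed (0.364 against 0.317).

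The order of the members by FPKM, which is scaled to gene length, changed mainly in the middle ranks. In control it ran from Mcl1 over Bax, Bcl2l1, Bid, Bak1, Pmaip1, Bcl2l11, Bbc3 and Bcl2a1b to Bcl2, and the neighbours Bid and Bak1 as well as Pmaip1 and Bcl2l11 overlapped between libraries. In OGD, Bax (51.0 ± 4.9 FPKM) and Bcl2l1 (50.4 ± 1.4 FPKM) could not be ordered, nor could the 4 BH3-only genes, whose means lay between 13.5 and 14.4 FPKM. In OGD + A-485, Bak1 (36.9 ± 2.7 FPKM) passed Bcl2l1 (31.3 ± 1.8 FPKM), and Bcl2a1b (12.2 ± 0.84 FPKM) overlapped with Bcl2l11 (11.9 ± 0.66 FPKM) and lay above Bbc3 (7.48 ± 1.6 FPKM).

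Among other relatives of the family, Bnip3, Bik and Bnip3l rose under OGD and Bmf fell. Of 16 further BCL-2 relatives, 11 passed the filter on low values, 10 of them on the control and OGD libraries alone, since Bcl2a1a passed only through the inhibitor group. Under OGD 4 were called higher and 1 lower, against 11.2 and 9.81% of all genes tested. With A-485 against OGD, Bcl2a1d and Bmf of those 10 were called higher and 1 (Bik) lower, against 12.2 and 13.4%. Bcl2a1a was called higher too, but it passed only through the inhibitor group, so its call is no result of its own. The 4th called higher under OGD was Bcl2l2, named after its value was seen, whose group means were 5.13, 7.60 and 8.28 FPKM. Its log2 fold change of 0.56 lost its call with a pseudocount of 1 (0.49) or without control replicate 3 (0.47). Bnip3, a mitophagy receptor and textbook target of the hypoxia factor HIF-1, was at 62.0 ± 5.8 FPKM in control libraries, 148 ± 13 FPKM under OGD and 119 ± 2.5 FPKM with A-485 (log2 fold change 1.25 under OGD, adjusted p = 4.92e-06). Its relative Bnip3l had 35.4 ± 2.0, 60.8 ± 5.4 and 82.7 ± 2.9 FPKM and rose under OGD (0.78, adjusted p = 2.73e-05), and its further difference of 0.45 with A-485 was under the fold threshold. Bik, a BH3-only gene, rose from 3.59 ± 0.29 to 7.80 ± 0.93 FPKM under OGD and fell to 5.19 ± 0.88 FPKM with A-485, a fall that lost its call without OGD replicate 2 (-0.52) or OGD + A-485 replicate 2 (-0.45). Bmf, a BH3-only gene whose product is held by the cytoskeleton, fell from 4.69 ± 0.23 to 2.96 ± 0.048 FPKM under OGD (-0.65, adjusted p = 0.00018) and rose to 4.59 ± 0.40 FPKM with A-485 (0.61, adjusted p = 0.000203), a call lost with a pseudocount of 1 (0.49). The remaining calls with A-485 were Bcl2a1d and Bcl2a1a, the latter through its 0 reads in the OGD libraries.

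Downstream of the mitochondria, 18 genes were listed for the apoptosome, the caspases and their inhibitors, and all passed the filter. Under OGD 2 were called higher (Birc3, Casp6) and 4 lower (Cycs, Birc5, Dffb, Htra2), against 21% of all genes, with a median of -0.09. With A-485 against OGD 1 was called higher (Birc3) and 3 lower (Dffb, Casp6 and Birc2, the last at -0.51 and named after its value was seen), against 25.7%, with a median of -0.05. Birc2 lost its call with a pseudocount of 1 (-0.44), under quantile normalization (-0.48) and without OGD replicate 2 (-0.44) or OGD + A-485 replicate 1 (-0.43). Cycs, the gene for cytochrome c, was at 44.1 ± 0.27 FPKM in control and fell to 25.7 ± 4.5 FPKM in OGD (-0.79, adjusted p = 0.000316), with 24.2 ± 0.41 FPKM in OGD + A-485. Birc5, which encodes the cell-cycle-linked inhibitor survivin, fell from 17.4 ± 0.17 to 10.01 ± 0.64 FPKM (-0.80, adjusted p = 9.58e-06). Dffb, the nuclease that cuts chromatin in apoptosis, fell under OGD and again with A-485, from 3.61 ± 0.44 over 2.06 ± 0.25 to 1.23 ± 0.25 FPKM, the second step losing its call with a pseudocount of 1 (-0.46). Casp6 rose under OGD (0.54, but 0.45 and not called with a pseudocount of 1, 0.50 with library totals and 0.44 without control replicate 3) and fell with A-485 (-0.65). Htra2, a mitochondrial protease that is released with cytochrome c, fell from 39.5 ± 1.2 to 25.5 ± 4.0 FPKM under OGD (-0.64, adjusted p = 0.00192). Birc3, which encodes the NF-kB-induced inhibitor cIAP2, rose from 5.54 ± 0.053 to 8.70 ± 0.53 FPKM under OGD (0.64, adjusted p = 2.02e-05) and to 12.4 ± 0.18 FPKM with A-485 (0.50, adjusted p = 5.97e-05). That second rise stood at the fold threshold and lost its call with a pseudocount of 1 (0.46), under quantile normalization (0.50), library totals and limma-voom (0.44 each), and without OGD replicate 3 (0.45) or OGD + A-485 replicate 3 (0.49).

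**Figure D5:**
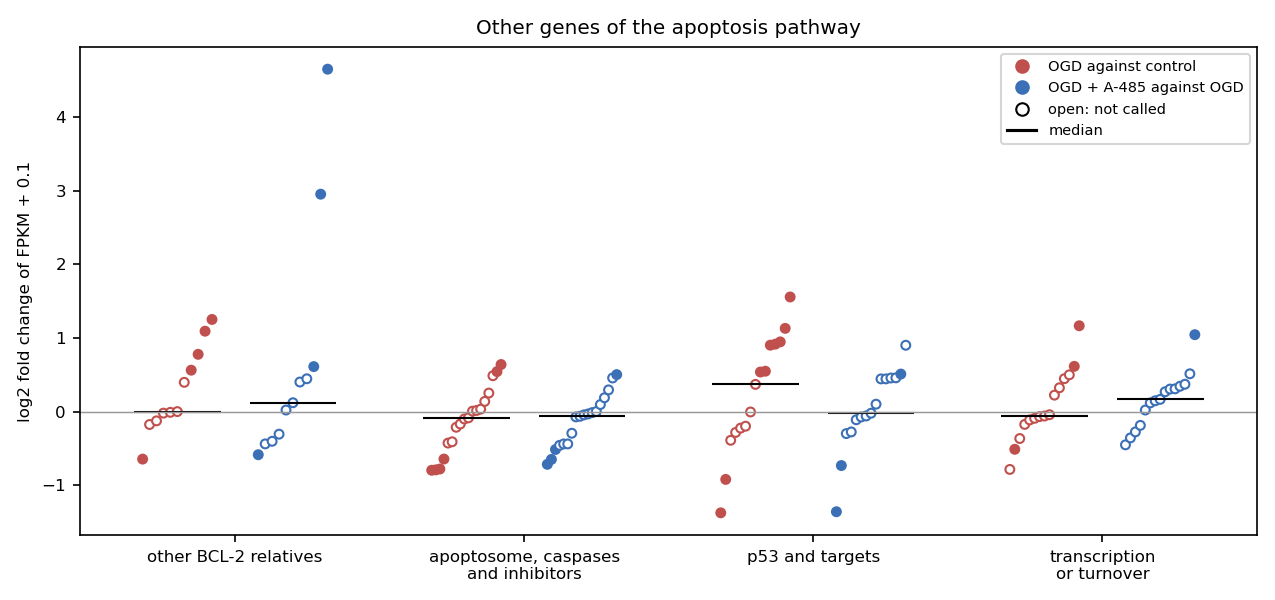
Log2 fold changes of the tested genes of 4 further lists, for OGD against control (red) and OGD + A-485 against OGD (blue). Points are filled where called, and a line marks the list median. The lists are other BCL-2 relatives, apoptosome with caspases and inhibitors, p53 with its targets, and a mixed list around BCL-2 family transcription or turnover. The highest blue points are Bcl2a1a and Bcl2a1d, and the fitted value of Bcl2a1a depends on the pseudocount because the OGD libraries hold 0 reads. The p53 list has the highest red median, at 0.37, which is the value of Fas, a gene with few reads.

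The p53 list was examined because Bbc3, Pmaip1 and Bax are textbook p53 targets. Of its 20 genes, 15 passed the filter. Under OGD 7 were called higher and 2 lower, against 11.2 and 9.81% of all genes, with a median of 0.37. That median is the value of Fas, which had 7 to 27 reads per control library and 15 to 19 per OGD library (adjusted p = 0.442). In all, 8 values were positive and 7 negative. Trp53 itself was lower under OGD (-0.39, adjusted p = 0.000273) but short of the fold threshold. Fas and Trp53 were named after their values were seen. With A-485 against OGD 1 was called higher and 2 lower, against 12.2 and 13.4%, with a median of -0.02. Cdkn1a, the cell-cycle inhibitor p21, measured 30.7, 30.4 and 28.8 FPKM in control, 92.6, 82.7 and 90.0 FPKM under OGD, and 52.2, 51.3 and 55.9 FPKM in OGD + A-485, with no overlap. It rose 2.95-fold under OGD (log2 fold change 1.56, adjusted p = 2.91e-07) and fell by 0.73 on the log2 scale with A-485. Plk2, a kinase of the stress response, rose from 46.1 ± 0.99 to 89.1 ± 5.6 FPKM and fell to 34.6 ± 1.5 FPKM. Sesn2 and Ccng1, a stress-induced brake on mTORC1 and a cyclin, rose 2.20-fold and 1.90-fold under OGD. Aen, an apoptosis-enhancing nuclease, fell from 5.12 ± 0.21 to 1.94 ± 0.42 FPKM (log2 fold change -1.38 with SE 0.14). It was the gene called higher with A-485, at 2.77 ± 0.20 FPKM and 0.51, and lost that call with a pseudocount of 1 (0.37), library totals (0.45), limma-voom (0.46) and the replicate block (0.51), and without 1 of several libraries (OGD replicates 1 and 2 at 0.43 each, OGD + A-485 replicates 1 and 2 at 0.49 and 0.47). Pidd1, a scaffold for caspase-2, fell from 3.70 ± 0.52 to 1.91 ± 0.33 FPKM.

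A mixed list of 15 genes held factors that set the transcription or turnover of the family, and other genes beside them. Among the latter were Dynll1, Dynll2, Vdac1, Vdac2, Vdac3, Chac1 and Trib3, so the counts do not describe 1 class. All 15 passed the filter, 14 of them without the inhibitor group. Under OGD 2 were called higher and 1 lower, against 21% of all genes called, and with A-485 against OGD 1 was called higher, against 25.7%. Ddit3, the stress factor CHOP, and Trib3, its target, rose under OGD from 3.81 ± 0.43 to 8.65 ± 0.75 FPKM and from 16.2 ± 1.6 to 24.8 ± 1.7 FPKM. Dynll2, the dynein light chain that tethers the Bmf product, fell from 32.7 ± 0.78 to 23.2 ± 4.0 FPKM and rose to 47.4 ± 2.2 FPKM with A-485 (log2 fold change 1.04, adjusted p = 6.77e-05). Its fall under OGD lost its call without OGD replicate 2 (-0.36) or control replicate 2 (-0.50), with a pseudocount of 1 (-0.50) and under quantile normalization (-0.48).

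For the 3 members with the widest range of group means, the genes with the most similar pattern over the 9 libraries were sought. They were looked up, whatever their level, among 10213 annotated genes whose mean reached 1 FPKM. The libraries fall into 3 groups, so these Pearson r mostly restate the group means, and they are given without a test. Closest to Mcl1 were Rpl3 (r = 0.997), Fam214b (0.996) and Hist1h1c (0.996). Closest to Bbc3 were Ahdc1 (0.983), Wipf2 (0.974) and Dnttip1 (0.972). Closest to Bid were Enoph1 (0.994), Utp14a (0.987) and Trmt6 (0.986).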

How the data were processed

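RNA-seq of 9 BV2 libraries was analysed from the deposited table of FPKM. Per the submitters' processing notes and the study's methods, the authors filtered reads, counted them on genes of GRCm38 with FeatureCounts 1.5.0-p3 and computed FPKM from count and gene length. The deposited values are FPKM and not counts, and the authors' own DESeq2 test was not repeated. FPKM times gene length and the library's divisor gave whole reads for 100% of the values (tolerance 0.01), which served for depth and for limma-voom. Genes averaging 0.2 FPKM or more over the libraries were fitted on the log2(FPKM + 0.1) scale by limma 3.58.1 (R 4.3.3), with group means and a trend in the prior variance. Python 3.11.15, pandas 2.3.3, scipy 1.17.1 and matplotlib 3.10.9 served for the rest. The fit was tested on simulated data.

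The members and gene lists were chosen with earlier results of these data known. Named genes are the 10 members, the Bcl2a1 copies, up to 6 genes per list with the largest change among those called in either main comparison, and 3 genes most similar to each of 3 members. For Ddit3, which has 2 rows, the higher was used. Alternatives covered pseudocounts, filters, scalings, fits and left-out libraries, and their use on the wider lists, and the ratio with all Bcl2a1 copies, were added after seeing the data. Some genes of the wider lists are not reported here.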

Additional observations from a re-analysis of the deposited data

How the results depend on the processing

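With an adjusted p-value (limma, Benjamini-Hochberg) under 0.05 as the only threshold, 6, 7 and 7 members were called in OGD against control, A-485 against OGD and A-485 against control, and 37, 38 and 40 genes of the wider lists (23, 12 and 23 with the fold threshold). The wider-list counts with A-485 include Bcl2a1a, whose calls are no result of their own. With a pseudocount of 1, 7 wider-list genes were called in A-485 against OGD. Leaving out 1 library at a time gave 2 to 3, 3 to 4 and 2 to 4 members called and 21 to 25, 10 to 13 and 21 to 24 wider-list genes. The 2 came without control replicate 2, OGD + A-485 replicate 2 or OGD + A-485 replicate 3, where Mcl1 and Bak1 were left. The balance differed by 0.70, -0.30 and 0.40 between groups (0.66 to 0.78, -0.38 to -0.25 and 0.35 to 0.45 without 1 library), by 1.11, -0.62 and 0.49 on summed FPKM, and by 0.32 for A-485 against control under quantile normalization. Summing the Bcl2a1 copies turned 0.33 and 0.66 for Bcl2a1b into 1.17 and 1.46.

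Pmaip1 in A-485 against control changed sign from 0.03 to -0.081 with library totals, -0.088 with limma-voom and as low as -0.044 without 1 library (without control replicate 1, and -0.0025 without OGD + A-485 replicate 2, up to 0.12 without control replicate 3). There the median of all genes was 0.02, and -0.09 and -0.10 under these scalings, which split the calls into 2253 higher and 3349 lower (library totals) and 2347 and 3466 (limma-voom), against 2747 and 2684. Under them Bcl2l11 was called in A-485 against control (-0.51 in each). For the wider lists in A-485 against OGD, both scalings called 4 genes higher and 10 lower, against 6 and 6. Signs also turned for Bcl2a1d under OGD (0.20 without control replicate 3, 0.17 without OGD replicate 1), Cycs with A-485 against OGD (0.046 without OGD replicate 1) and Bmf in A-485 against control (0.0053 without control replicate 1, 0.029 without OGD + A-485 replicate 2) and Birc2 there (0.0030 without control replicate 1, 0.056 without OGD + A-485 replicate 1), none of them called. With all Bcl2a1 copies, the summed ratio without Mcl1 in A-485 minus control turned from -0.022 to 0.048. The cause was not tested. Of the 600 single-member values under an alternative, 564 kept direction and side of the threshold. Many of these alternatives leave a member's fold as it was, so its direction could not turn. They are the filters, the replicate block, the fits with another estimate of the spread, the adjusted p-value and leaving out a library of the group not compared.

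The libraries that share a replicate number showed no common deviation (mean r of -0.0023 over 9 pairs, against 0.0012 for 18 pairs with different numbers), and 4 libraries correlated best with their own number. With the replicate block, 2, 3 and 4 members and 23, 11 and 22 wider-list genes were called, and no member's call changed. Aen with A-485 against OGD and Bik in A-485 against control, both at 0.51, lost theirs. Genes with few reads, such as the Bcl2a1 copies, carry the widest errors.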
